A study of Mus musculus with 3 samples.

Results

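The 45 genes described here mark 2 stages of the cell division cycle. They are 20 genes of S phase, when DNA is copied, and 25 genes of G2 and mitosis, called mitosis genes here. G2 is the gap after DNA copying, and in mitosis the copied chromosomes are separated and the cell divides. They were taken by symbol from a fixed list, and each of the 45 symbols occurred once among the 53380 features of the deposited matrices. Their transcripts were followed in mesenchymal cells of the mouse sciatic nerve, in the classes the authors gave these cells and in the 3 libraries of the study.

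A dividing cell switches these genes on in a fixed order. E2F factors and cyclin E (Ccne1, Ccne2) open S phase. The origin loaders Cdc6 and Cdt1, the Mcm helicase subunits with Cdc45 and Gins2, the sliding clamp Pcna and the nucleotide enzymes Rrm1, Rrm2 and Tyms then serve DNA synthesis. Later, cyclin A and cyclin B with Cdk1, the Aurora and Polo kinases, spindle and kinetochore proteins, and the ubiquitin ligase partners Ube2c and Cdc20 drive mitosis. Resting connective tissue cells of an uninjured nerve divide rarely. The bridge is the new tissue that joins the stumps of a divided nerve, and mesenchymal cells make up much of it.

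The cells came from mice in which a tamoxifen-inducible Cre under the Pdgfrb promoter (Pdgfrb-cre/ERT2) switches on the R26-TomatoLSL reporter, and all 3 groups carry both alleles. TdTomato-positive cells were sorted from the bridge of injured nerves on day 7 or day 21 and from intact sciatic nerve, and each of the 3 groups is a single library. Pdgfrb drives the Cre in pericytes and vascular smooth muscle as well as in nerve fibroblasts, so the sort can hold several cell types. Per the labels' protocols, nerves were pooled and digested with enzymes, and only intact nerve went through myelin-removal beads. An effect of the beads and one of the missing injury cannot be told apart. The sources used here do not give the type of injury, the age of the mice or how many nerves were pooled.

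The annotated cells numbered 1343 in intact nerve, 1780 at day 7 and 4111 at day 21, with medians of 5667, 19316 and 7442 UMIs (unique molecular identifiers, counted transcripts) per cell. Levels are CPM, the UMIs of a gene per 1000000 UMIs of the cells named. They are not divided by gene length, so a gene is compared between groups and not with other genes. The authors' 6 classes are MES_ENDO, MES_EPI, MES_PERI, MES_DIFF, MES_EPI-diff and MES_DIV. The last is called the dividing class here. In intact nerve, endoneurial markers summed to 1778 CPM in MES_ENDO, epineurial markers to 8029 CPM in MES_EPI and perineurial markers to 5882 CPM in MES_PERI, each the highest of the 3. At day 7 the endoneurial markers had 924 CPM in MES_ENDO, against 1013 CPM in MES_EPI, so that label was not borne out by them there. The meaning of MES_DIFF was not given. The libraries shared 41 (day 7 and intact), 41 (day 21 and intact) and 58 (day 21 and day 7) cell barcodes, of which 1, 2 and 2 were annotated in both. With 1 library per group there is no replicate and no test. The 95% intervals cover counting error only, and a gene is called higher or lower past 2-fold.

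The promoters of the 2 gene sets differ in sequence, and 6 are printed for the genes that the results turn on. RefSeq promoters (build GRCm38.p6, 250 bases before to 50 after the start) were found for 38 of the 45 members. Capitals mark matches, on either strand, to CCAAT, to TTTGAA, or to TTTGGCGC, TTTCGCGC, TTTCCCGC or TTTGGCGG. CCAAT is the core bound by NF-Y, TTTGAA the cell cycle homology region bound by the DREAM and MuvB complexes, and the 4 longer motifs are forms of the E2F site. The S phase promoters shown are Mcm6 (chr1:128359656-128359955, minus strand), Pclaf (chr9:65890073-65890372, plus strand) and Cdc6 (chr11:98907901-98908200, plus strand).
Mcm6: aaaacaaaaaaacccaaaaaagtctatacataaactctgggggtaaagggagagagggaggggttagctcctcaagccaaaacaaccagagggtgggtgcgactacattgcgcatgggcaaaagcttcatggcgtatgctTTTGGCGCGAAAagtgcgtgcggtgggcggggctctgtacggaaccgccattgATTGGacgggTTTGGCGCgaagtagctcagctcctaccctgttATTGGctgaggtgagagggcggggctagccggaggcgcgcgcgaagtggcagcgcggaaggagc
Pclaf: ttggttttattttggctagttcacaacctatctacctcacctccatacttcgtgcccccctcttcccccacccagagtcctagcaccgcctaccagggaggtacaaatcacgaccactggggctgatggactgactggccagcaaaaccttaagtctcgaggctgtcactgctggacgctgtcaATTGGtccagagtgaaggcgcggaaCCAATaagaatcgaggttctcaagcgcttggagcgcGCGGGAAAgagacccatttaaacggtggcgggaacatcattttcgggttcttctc
Cdc6: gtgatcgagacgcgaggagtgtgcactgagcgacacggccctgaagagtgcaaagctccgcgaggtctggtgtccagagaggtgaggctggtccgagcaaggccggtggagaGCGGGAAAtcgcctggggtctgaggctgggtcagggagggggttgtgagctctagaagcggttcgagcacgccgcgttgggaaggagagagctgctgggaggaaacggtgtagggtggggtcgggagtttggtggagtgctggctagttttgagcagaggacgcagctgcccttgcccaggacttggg
The mitosis promoters shown are Ccnb2 (chr9:70421505-70421804, minus strand), Cenpa (chr5:30666636-30666935, plus strand) and Cdc20 (chr4:118437294-118437593, minus strand).
Ccnb2: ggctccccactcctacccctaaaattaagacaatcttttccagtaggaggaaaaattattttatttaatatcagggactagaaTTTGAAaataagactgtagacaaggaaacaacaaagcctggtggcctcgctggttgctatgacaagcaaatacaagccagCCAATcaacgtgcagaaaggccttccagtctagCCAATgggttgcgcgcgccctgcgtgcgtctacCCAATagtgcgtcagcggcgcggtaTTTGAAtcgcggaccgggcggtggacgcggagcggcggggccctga
Cenpa: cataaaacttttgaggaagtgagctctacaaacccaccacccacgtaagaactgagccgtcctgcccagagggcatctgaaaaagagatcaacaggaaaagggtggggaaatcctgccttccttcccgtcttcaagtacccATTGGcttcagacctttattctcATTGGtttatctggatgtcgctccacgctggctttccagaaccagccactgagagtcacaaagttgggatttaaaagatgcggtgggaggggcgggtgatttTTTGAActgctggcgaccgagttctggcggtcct
Cdc20: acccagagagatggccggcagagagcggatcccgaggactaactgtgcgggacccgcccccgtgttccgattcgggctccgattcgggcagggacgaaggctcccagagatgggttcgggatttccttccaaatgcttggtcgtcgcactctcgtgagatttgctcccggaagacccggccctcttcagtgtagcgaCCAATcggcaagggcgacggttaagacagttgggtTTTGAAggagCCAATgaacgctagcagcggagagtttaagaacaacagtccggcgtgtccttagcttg
Ccnb2 has 3 CCAAT and 2 TTTGAA matches, while Cenpa and Cdc20 have 2 CCAAT and 1 TTTGAA match each. Mcm6 has 3 matches to the E2F motifs and 2 to CCAAT, Pclaf has 1 E2F match and 2 to CCAAT, and Cdc6 has 1 E2F match alone.

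Across the members with a promoter, TTTGAA occurred in 16 of 21 mitosis genes (76.2%) and in 2 of 17 S phase genes (11.8%), against 17.9% of all 32851 promoters in the table. At least 1 of the 4 E2F motifs occurred in 8 of 17 S phase genes (47.1%) and in 1 of 21 mitosis genes (4.76%), which was Cdk1, against 2.37% of all promoters. CCAAT was frequent in both sets, with 17 of 21 mitosis genes (81.0%) and 12 of 17 S phase genes (70.6%), against 37.4% of all promoters. CCAAT and TTTGAA occurred together in 14 mitosis genes (66.7%) and in 2 S phase genes, Mcm2 and Cdc45, against 6.95% of all promoters. Counted by gene symbol, over the 27025 symbols of the table, the shares were 20.2% for TTTGAA, 2.70% for the E2F motifs and 41.1% for CCAAT. Singly, TTTGGCGC matched 4 S phase and 0 mitosis genes (0.514% of all promoters), TTTCGCGC 4 and 1 (0.323%), TTTCCCGC 4 and 0 (1.07%), and TTTGGCGG none (0.560%). In 5 places among the member promoters 2 matches overlapped, as in Mcm6, where TTTGGCGC and the reverse complement of TTTCGCGC share bases. These are matches of letters in one window, and binding was not measured.

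Cells of the day 7 bridge carried more transcripts of both gene sets than cells of intact nerve. Summed over all annotated cells, the 25 mitosis genes reached 870 CPM at day 7, against 110 CPM in intact nerve, 7.91-fold higher (7.41 to 8.46). The 20 S phase genes reached 504 CPM at day 7, against 177 CPM in intact nerve, 2.84-fold higher (2.70 to 3.00). More than 2-fold higher were 25 of 25 mitosis genes and 16 of 20 S phase genes, where 15.3% of all measured features were higher and 18.1% lower. The median log2 ratio was 2.91 for mitosis genes and 2.17 for S phase genes, beside -0.08 for all features. In intact nerve each mitosis gene rested on only 8 to 84 UMIs, and 82.4% of their UMIs came from the 7 cells of the dividing class.

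Among the S phase genes, Pclaf, a partner of the Pcna clamp, stood furthest from intact nerve. It was measured at 1.91 CPM in intact nerve, 87.7 CPM at day 7 and 20.9 CPM at day 21, so that day 7 was 45.9-fold (28.2 to 80.4) and day 21 11.0-fold (6.70 to 19.3) higher than intact. Cdc45, which joins the Mcm ring to form the active helicase, had 0.597, 8.32 and 3.03 CPM in intact, day 7 and day 21 cells. Uhrf1, which keeps DNA methylation on the new strand, had 0.717, 9.51 and 4.42 CPM. All 3 were lowest in intact nerve and highest at day 7, and Cdc45 and Uhrf1 rested on 5 and 6 UMIs in intact nerve.

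The 6 Mcm genes, which encode the ring of the replicative helicase, followed the same order of libraries with unequal spread. Mcm2 had 1.55 CPM in intact nerve, 12.9 CPM at day 7 and 4.84 CPM at day 21. Mcm3 had 3.46, 15.6 and 7.01 CPM, and Mcm5 1.79, 10.2 and 3.62 CPM. Mcm4, Mcm6 and Mcm7 had 15.2, 28.8 and 19.6 CPM, 10.03, 29.6 and 14.2 CPM, and 11.1, 24.9 and 19.1 CPM. The ratio of day 7 to intact was thus 8.33-fold (4.82 to 15.8) for Mcm2 but 1.90-fold (1.58 to 2.30) for Mcm4. The nucleotide enzymes stood likewise, with Rrm2, the regulated subunit of ribonucleotide reductase, at 2.63, 18.4 and 8.16 CPM, and its partner Rrm1 at 15.1, 33.3 and 19.2 CPM. Tyms, which makes thymidylate, had 11.8, 56.4 and 18.7 CPM. Day 7 against intact was 7.02-fold (4.596 to 11.3) for Rrm2 and 2.21-fold (1.84 to 2.68) for Rrm1. Gins2, a helicase partner, had 4.42, 22.2 and 9.05 CPM, and the cyclin E genes Ccne1 and Ccne2 had 2.75, 12.8 and 6.18 CPM and 1.19, 11.1 and 4.84 CPM.

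A few S phase genes changed little or the other way. Pcna, the sliding clamp, had 37.6 CPM in intact nerve, 52.6 CPM at day 7 and 38.1 CPM at day 21. Slbp, which binds histone mRNA, had 41.0, 46.2 and 33.0 CPM. Day 7 exceeded intact by only 1.40-fold (1.24 to 1.58) for Pcna and 1.13-fold (1.00 to 1.27) for Slbp. At day 21 Slbp was 0.806 times intact (0.713 to 0.912). Cdc6, an origin loader, was the 1 member that was lower at both times, with 7.29 CPM in intact nerve, 4.40 CPM at day 7 and 3.38 CPM at day 21, and at day 21 its log2 ratio to intact was -1.11. In intact nerve 47 of its 61 UMIs came from MES_ENDO cells, where its level was 13.5 CPM, against 3.75 CPM in MES_ENDO at day 7 and 3.91 CPM at day 21. Cdt1, the other loader, had 1.19, 5.06 and 2.88 CPM. E2f1, the transcription factor, had 6.09, 14.2 and 12.1 CPM. By class, E2f1 had 0.288 CPM (1 UMI) in MES_ENDO of intact nerve, 5.35 CPM at day 7 and 7.12 CPM at day 21, while MES_EPI had 9.63, 12.8 and 11.0 CPM.

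**Figure D1:**
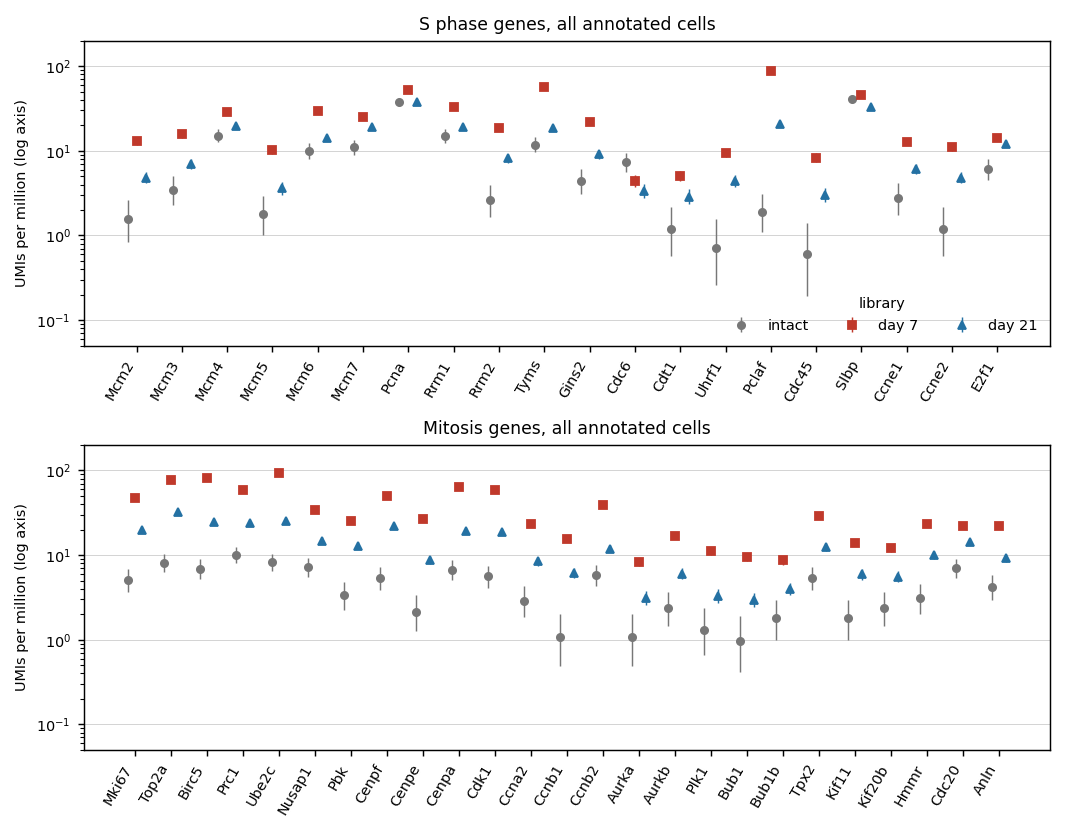
Level of each S phase gene (top) and mitosis gene (bottom) in all annotated cells of intact nerve (grey circles), day 7 (red squares) and day 21 (blue triangles), in CPM on a log axis, with exact Poisson 95% intervals. Day 7 is highest for 19 of 20 S phase and 25 of 25 mitosis genes, and Cdc6 is the exception.

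Mitosis genes kept one order of libraries throughout: all 25 were lowest in intact nerve, highest at day 7 and between these at day 21. Mki67, whose protein is a common proliferation marker, had 5.02, 47.7 and 19.8 CPM in intact, day 7 and day 21 cells. Top2a, which untangles copied DNA, had 8.12, 77.9 and 32.0 CPM. Cdk1, the kinase that starts mitosis, had 5.61, 59.0 and 18.9 CPM. Its cyclins Ccna2, Ccnb1 and Ccnb2 had 2.87, 23.3 and 8.43 CPM, 1.08, 15.4 and 6.12 CPM, and 5.85, 39.0 and 11.9 CPM. Day 7 against intact was 10.5-fold (7.87 to 14.3) for Cdk1 and 14.3-fold (7.50 to 31.5) for Ccnb1, which had 9 UMIs in intact nerve.

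Birc5 and Aurkb of the chromosomal passenger complex had 6.93, 82.2 and 24.7 CPM, and 2.39, 16.8 and 6.06 CPM. Of the other mitotic kinases, Aurka had 1.08, 8.27 and 3.15 CPM, Plk1 1.31, 11.1 and 3.27 CPM and the checkpoint kinase Bub1 0.956, 9.46 and 2.97 CPM. Of the spindle and cytokinesis genes, Prc1, which bundles the central spindle, had 10.03, 58.6 and 23.8 CPM and Anln, of the contractile ring, 4.18, 22.0 and 9.26 CPM. Tpx2, Nusap1 and Hmmr, which bind spindle microtubules, had 5.38, 29.0 and 12.5 CPM, 7.29, 33.9 and 14.8 CPM, and 3.11, 23.3 and 10.1 CPM. The kinesins Kif11 and Kif20b had 1.79, 13.9 and 5.94 CPM and 2.39, 12.0 and 5.58 CPM. These spindle genes kept the same order of libraries as Mki67. At the kinetochore, Cenpa had 6.69, 63.4 and 19.2 CPM, Cenpe 2.15, 26.5 and 8.76 CPM, Cenpf 5.38, 49.4 and 21.9 CPM and the checkpoint protein Bub1b 1.79, 8.65 and 4.01 CPM. Ube2c had 8.24, 92.3 and 25.5 CPM and the kinase Pbk 3.34, 25.6 and 12.9 CPM. The smallest ratio of day 7 to intact in the set was that of Cdc20, an activator of the anaphase-promoting complex, with 7.05, 21.9 and 14.3 CPM and 3.10-fold (2.38 to 4.11). Cdc20 was also the mitosis gene with the least difference between the bridge libraries.

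At day 21 both sets lay between the other libraries, and S phase genes were closer to intact nerve. The mitosis genes summed to 326 CPM at day 21, against 110 CPM in intact nerve, 2.96-fold higher (2.77 to 3.17), and the S phase genes to 252 CPM, against 177 CPM, 1.42-fold higher (1.347 to 1.505). More than 2-fold higher than intact were 25 of 25 mitosis genes and 9 of 20 S phase genes, and 1 S phase gene, Cdc6, was lower, where 12.9% of features were higher and 11.5% lower. The median log2 ratio was 1.53 for mitosis genes and 0.99 for S phase genes, beside 0.05 for all features. This comparison shares the intact library with the one before.

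Between the bridge libraries every member was lower at day 21. The S phase sum was 252 CPM at day 21, against 504 CPM at day 7, 2.00-fold lower, and the mitosis sum was 326 CPM, against 870 CPM, 2.67-fold lower. Of the 45 genes 35 were more than 2-fold lower at day 21, 23 of 25 mitosis and 12 of 20 S phase genes, where 10.6% of features were lower and 13.5% higher. None was more than 2-fold higher. All 45 counting intervals lay below 1, a count that was not made over all features. The medians were -1.30 for mitosis and -1.08 for S phase on the log2 scale, beside 0.11 for all features. The widest gap was again that of Pclaf, 4.19-fold lower (3.86 to 4.55), followed by Ube2c, the ubiquitin-conjugating partner of the anaphase-promoting complex, 3.61-fold lower (3.35 to 3.9). The narrowest were E2f1, 1.17-fold lower (1.03 to 1.34), and Cdc6, 1.30-fold lower (1.01 to 1.67).

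The dividing class held a different share of cells in each library. It held 7 of 1343 annotated cells in intact nerve (0.521%), 206 of 1780 at day 7 (11.6%) and 119 of 4111 at day 21 (2.89%). Most mitosis UMIs came from it, 82.4%, 90.8% and 91.6% in intact, day 7 and day 21 cells, but only 5.39%, 58.0% and 38.7% of the S phase UMIs. At day 7 the share of a mitosis gene's UMIs from this class ran from 72.1% (Ccnb2) to 97.2% (Pbk), with a median of 93.5%. That of an S phase gene ran from 34.0% (E2f1) to 93.9% (Pclaf), with a median of 48.0%. At day 21 the medians were 92.0% for mitosis and 32.3% for S phase genes. Pclaf was the only S phase gene of which the dividing class gave more than 90% in either bridge library. With every class held at 1 common share of cells, the median for mitosis genes was -0.08 for day 7 and -0.08 for day 21 against intact, and 0.11 for day 21 against day 7. For S phase genes it was then 0.91 for day 7 and 0.53 for day 21 against intact, and -0.20 for day 21 against day 7. This mixture changes the shares of all classes at once, and its values against intact rest on the 7 intact cells of the dividing class. With the dividing class left out instead, the medians for day 7 against intact were 2.74 for mitosis and 1.16 for S phase genes, against 2.91 and 2.17 over all annotated cells. Those for day 21 against day 7 were -1.35 and -1.03, against -1.30 and -1.08 over all annotated cells. Those for day 21 against intact were 0.50 and 0.20, against 1.53 and 0.99. With genes at 0 UMIs set at their bound, the mitosis medians without the class were 1.88 for day 7 and 0.41 for day 21 against intact.

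**Figure D2:**
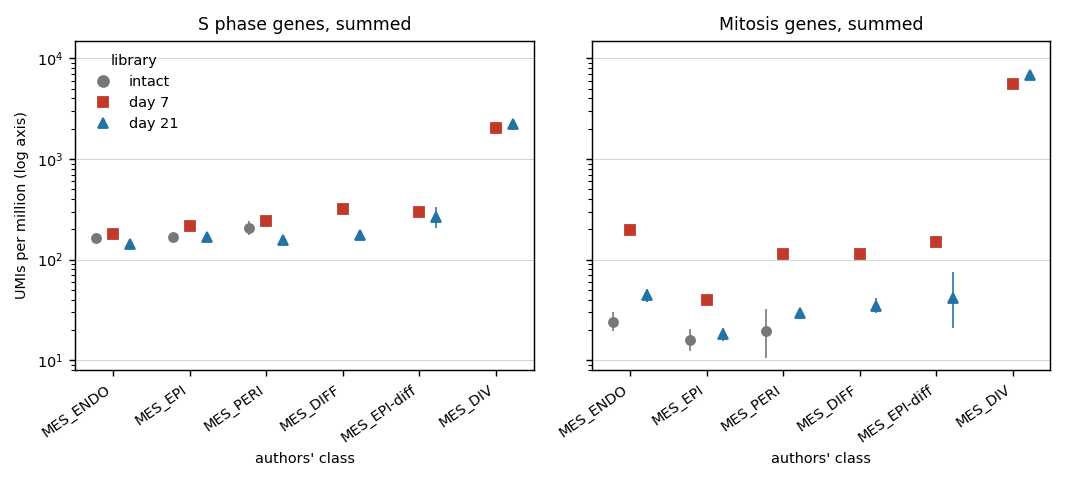
Summed level of the 20 S phase genes (left) and the 25 mitosis genes (right) in each class of the authors, in CPM on a log axis with exact Poisson 95% intervals, for intact nerve, day 7 and day 21; groups under 20 cells are not drawn. Outside the dividing class S phase sums lie between 145 and 319 CPM, while mitosis sums lie between 16.0 and 199 CPM and are highest at day 7 in each class.

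Within the dividing class the 2 bridge libraries were close, at medians of 11429 UMIs per cell at day 21 and 24149.5 at day 7. Since the authors made the classes from these same cells, a high level in this class is a description. The S phase sum was 2220 CPM (2145 to 2297) at day 21, against 2044 CPM (2005 to 2083) at day 7. The mitosis sum was 6786 CPM (6654 to 6919) at day 21, against 5524 CPM (5460 to 5588) at day 7. No member was more than 2-fold higher or lower at day 21, where 11% of features in the class were higher and 9.36% lower. The median log2 ratio was 0.38 for S phase and 0.25 for mitosis genes, beside 0.14 for all features of the class.

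Single members of the class differed by less than 2-fold in both directions. The counting interval lay above 1 for 25 members, below 1 for 4 and held 1 for 16. Such intervals were not counted over all features, so these counts do not set the members apart. Cdc20 had 273 CPM at day 21, against 140 CPM at day 7, 1.95-fold higher (1.73 to 2.21). Cdt1, an origin loader, had 31.7 CPM at day 21, against 17.0 CPM, 1.86-fold (1.28 to 2.69). Uhrf1 was 1.71-fold (1.37 to 2.13) and Pbk, a mitotic kinase, 1.64-fold (1.46 to 1.84) higher at day 21. The 4 lower at day 21 were Gins2 (0.782 times day 7, 0.612 to 0.990), Pclaf (0.801, 0.736 to 0.871), Tyms (0.831, 0.734 to 0.939) and Ube2c (0.902, 0.835 to 0.974). Pclaf had 462 CPM at day 21, against 576 CPM at day 7, in this class, so its 4.19-fold gap over all annotated cells was 1.25-fold within it.

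**Figure D3:**
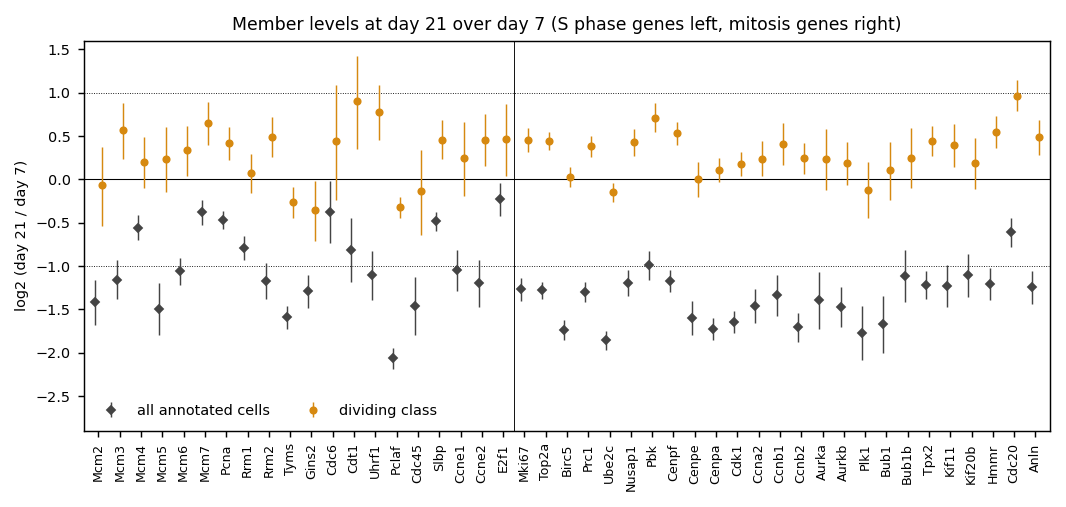
Log2 ratio of day 21 to day 7 for each member, S phase genes on the left and mitosis genes on the right, in all annotated cells (dark diamonds) and in the dividing class (orange circles), with 95% counting intervals; dotted lines mark 2-fold. All 45 diamonds lie below 0, and all circles lie between the dotted lines, from -0.35 (Gins2) to 0.97 (Cdc20).

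The 7 intact cells of the dividing class differed widely among themselves. Their mitosis UMIs numbered 0, 0, 1, 54, 230, 235 and 239, and their S phase UMIs 3, 2, 4, 2, 19, 21 and 29 in the same cells. The last 3 held 24.97%, 25.5% and 25.95% of all mitosis UMIs of the intact library. The intact level of a mitosis gene therefore rests largely on 4 cells. The other 3 cells had almost none of these transcripts, so their label as dividing cells was not borne out by the members.

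The balance of S phase to mitosis UMIs separated the dividing class from the others. In the dividing class it was 0.327 (0.314 to 0.340) at day 21, against 0.370 (0.362 to 0.378) at day 7. Outside it, S phase UMIs outnumbered mitosis UMIs, 8.67 to 1 in intact nerve, 2.64 to 1 at day 7 and 5.68 to 1 at day 21. The lowest balance outside was in MES_ENDO at day 7, 0.905 (0.814 to 1.01), against 6.74 (5.35 to 8.58) in MES_ENDO of intact nerve. MES_EPI had 10.5, 5.49 and 9.28, and MES_PERI 10.8, 2.16 and 5.37, in intact, day 7 and day 21 cells.

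Outside the dividing class mitosis transcripts were also highest at day 7. They summed to 93.6 CPM at day 7, against 19.6 CPM in intact nerve, 4.78-fold higher (4.08 to 5.63). At day 21 they summed to 28.5 CPM, against 93.6 CPM at day 7, 3.28-fold lower. S phase transcripts there summed to 247 CPM at day 7, against 170 CPM in intact nerve, 1.46-fold higher (1.37 to 1.54), and to 162 CPM at day 21, which was 0.953 times intact (0.898 to 1.01). Without the dividing class, day 7 exceeded intact nerve more than 2-fold for 30 members and lay more than 2-fold below it for 1, where 13.6% of features were higher and 18.5% lower. Of these 30, Aurka, Aurkb, Bub1 and Hmmr had 0 UMIs there in intact nerve, Ccnb1 had 1, and Ube2c, Ccna2, Cenpe and Cdk1 had 2 each, so their ratios depend on the pseudocount. At day 21, 26 members were more than 2-fold lower than at day 7 and none higher, where 9.86% of features were lower and 14.2% higher. The mitosis genes Nusap1, Bub1b, Kif11, Kif20b and Cdc20 had log2 ratios of 0.056, 0.18, 0.030, 0.96 and 0.16 there. Pcna and Slbp stayed present in each class, at 26.0 to 49.6 CPM and 22.5 to 46.7 CPM. Against intact nerve, 12 were higher and 2 lower at day 21, where 11.6% of features were higher and 12.2% lower.

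Each other class had its own profile of these transcripts. In MES_ENDO mitosis genes summed to 24.2 CPM in intact nerve, 199 CPM at day 7 and 44.4 CPM at day 21, while S phase genes stayed at 163, 180 and 145 CPM. In MES_PERI the mitosis sums were 19.3, 113 and 29.2 CPM and the S phase sums 208, 244 and 157 CPM. Of the classes with 20 or more cells, MES_EPI had the lowest mitosis sum in each library, 16.0, 39.6 and 18.2 CPM, with S phase sums of 168, 218 and 169 CPM. MES_DIFF and MES_EPI-diff, which held 16 and 1 cells in intact nerve, had mitosis sums of 34.8 and 42.0 CPM at day 21, against 113 and 150 CPM at day 7. Their S phase sums were 174 and 263 CPM at day 21, against 319 and 295 CPM at day 7.

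In MES_ENDO at day 7 a pair of mitosis genes gave a large share of the signal. Cenpa, the histone variant of centromeres, had 54.3 CPM, against 3.75 CPM in MES_ENDO of intact nerve, and Ccnb2, a B-type cyclin, had 40.7 CPM, against 1.73 CPM. Together they made up 47.7% of the mitosis UMIs of these cells, but 9.71% of those of the dividing class in the same library. The share was 12.8% in MES_EPI, 32.1% in MES_PERI and 32.1% in MES_DIFF at day 7, and 34.2% in MES_ENDO at day 21. The pair was chosen after its values were seen. Over all 25 mitosis genes few cells carried the signal: 14 of 255 MES_ENDO cells at day 7 had 3 or more mitosis UMIs at equal depth and held 66.4% of the mitosis UMIs of the class. This share was lowest in MES_EPI, at 12.5%. Over all annotated cells outside the dividing class at day 7, the 40 cells with 3 or more mitosis UMIs held 41.4% of the mitosis UMIs. S phase UMIs there were spread more thinly, and the 29 cells with 3 or more held 6.01% of them.

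Counted per cell at equal depth, the share of cells with these transcripts was highest at day 7. Each cell was thinned to 2000 UMIs, below the 2012 UMIs of the shallowest annotated cell, so no cell was lost. Then 1.79% (1.15 to 2.65) of annotated cells in intact nerve, 14.9% (13.3 to 16.6) at day 7 and 3.41% (2.87 to 4.01) at day 21 held 3 or more member UMIs. Without thinning the shares were 13.8%, 72.9% and 21.2%. Outside the dividing class the thinned shares were 1.497%, 4.76% and 0.952%. By class at day 7 they were 11.7% in MES_EPI-diff, 8.12% in MES_DIFF, 6.27% in MES_ENDO, 5.39% in MES_PERI and 1.48% in MES_EPI. No annotated class is known to lack these genes, so no negative class was at hand to measure free RNA from lysed cells. Unclassed barcodes with 1% or more smooth muscle UMIs, at medians of 6104, 12524 and 6700 UMIs, had shares of 0.5% (1 of 200) in intact nerve, 17.5% (11 of 63) at day 7 and 0.917% (1 of 109) at day 21. At day 7 the share in each class outside the dividing class lay below that of these barcodes, whose interval was 9.05 to 29.1%. These barcodes are not known to lack dividing cells either, so their share does not measure free RNA. Expression and free RNA in these classes cannot be told apart from the shares.

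Cells of the dividing class spanned a range from S phase gene to mitosis gene profiles. Cells in G2 and cells in mitosis were not told apart. At day 21, 53 of 119 cells (44.5%) had 3 or more UMIs of both sets, 38 (31.9%) of mitosis genes only, 11 (9.24%) of S phase genes only and 17 (14.3%) of neither. At day 7 the counts were 93 of 206 (45.1%), 72 (34.95%), 25 (12.1%) and 16 (7.77%). All 4 pairs of shares had overlapping binomial intervals. The neither range held 14.3% (8.55 to 21.9) at day 21 and 7.77% (4.505 to 12.3) at day 7. Of these cells, 11 at day 21 and 1 at day 7 had no member UMI at all at this depth. At the threshold of 3, 21 cells at day 21 and 50 at day 7 had an S phase count at or 1 below it, so these ranges are not types.

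**Figure D4:**
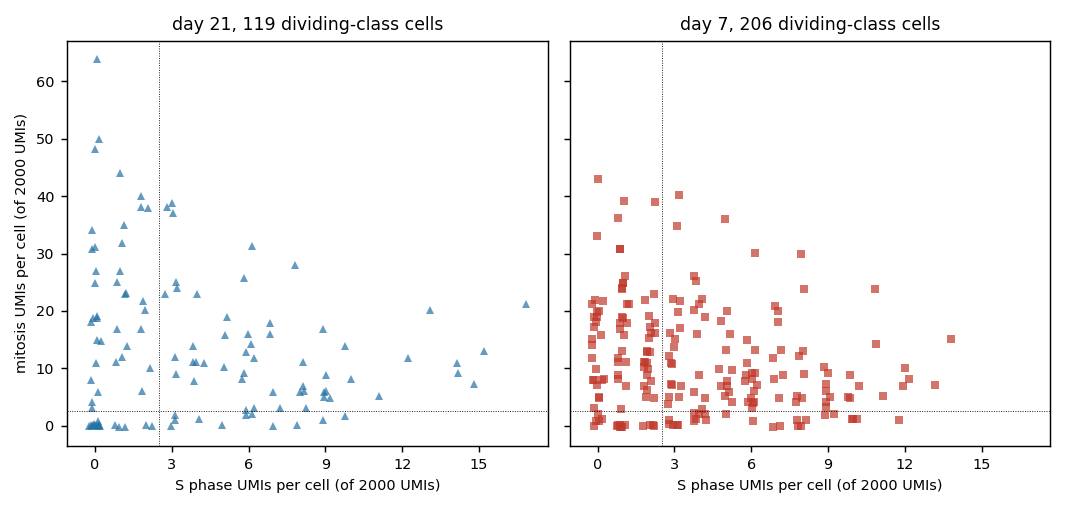
Each point is a cell of the dividing class after thinning to 2000 UMIs, with its S phase UMIs on the horizontal and its mitosis UMIs on the vertical axis, for day 21 (left, 119 cells) and day 7 (right, 206 cells); points are jittered by up to 0.25 UMI and dotted lines mark the threshold of 3. The highest mitosis counts are 64 at day 21 and 43 at day 7, and the highest S phase counts 17 and 14.

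Among cells of the dividing class each member varied with its own set. Over the log-transformed values of 119 cells at day 21 and 206 at day 7, all 20 S phase genes correlated more with the sum of the other S phase genes, and all 25 mitosis genes more with the sum of the other mitosis genes. These are correlations over cells of 1 library, which share depth and source, and are given as descriptions. The r with the own set ranged from 0.42 to 0.77 for S phase and from 0.48 to 0.88 for mitosis genes at day 21, and from 0.38 to 0.74 and from 0.48 to 0.83 at day 7. The 2 summed sets had an r of 0.23 with each other at day 21 and 0.03 at day 7.

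The same members had the highest r with the opposite set in both libraries. Of the mitosis genes, Pbk, Top2a, Cdk1 and Aurkb had the highest r with the S phase sum, at 0.50, 0.48, 0.33 and 0.31 at day 21 and 0.42, 0.37, 0.25 and 0.31 at day 7. Of the S phase genes, Pclaf and Rrm1 had the highest r with the mitosis sum, 0.43 and 0.33 at day 21 and 0.35 and 0.34 at day 7. Cenpa lay at the far end, with an r of -0.45 at day 21 and -0.51 at day 7 with the S phase sum. Cenpf, Ccnb2 and Hmmr also had negative values, at -0.31, -0.34 and -0.23 at day 21 and -0.36, -0.36 and -0.31 at day 7. Ccnb1 and Cdc20 had -0.23 and -0.22 at day 21, against -0.44 and -0.41 at day 7. E2f1 had an r of 0.02 with the mitosis sum at day 21, against -0.30 at day 7.

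**Figure D5:**
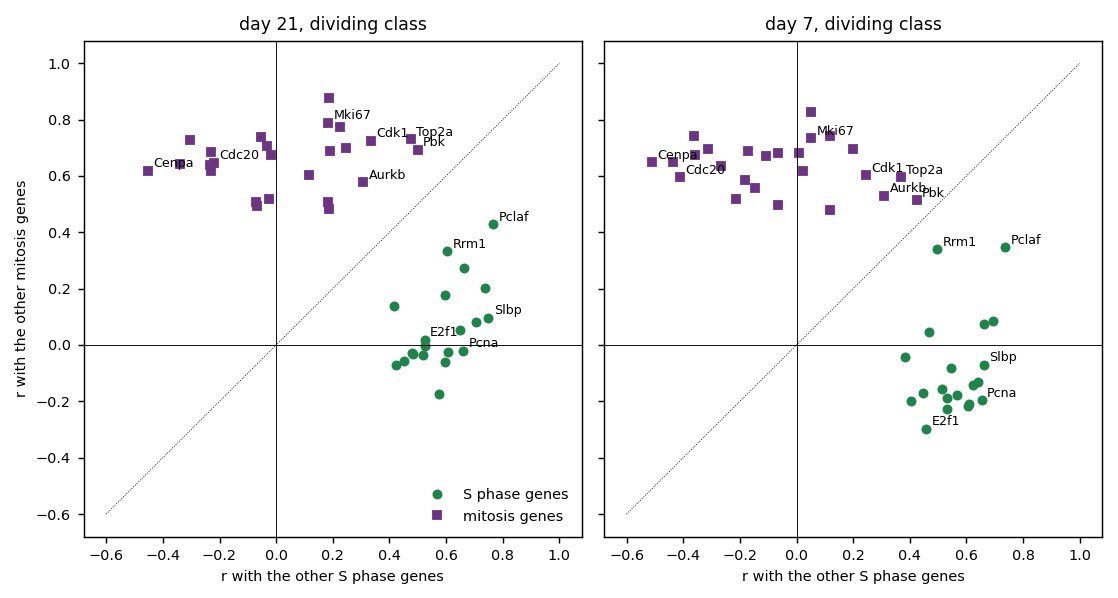
For each member, Pearson's r over cells of the dividing class with the summed other S phase genes (horizontal) and with the summed other mitosis genes (vertical), for day 21 (left, 119 cells) and day 7 (right, 206 cells); the dotted diagonal marks equal r. All S phase genes (green circles) lie below and all mitosis genes (purple squares) above the diagonal.

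The other genes of the cell cycle were read from lists of replication, mitosis, cohesion, regulation and repair genes. Between the bridge libraries, 32 of 48 other mitosis genes and 9 of 43 other replication genes were more than 2-fold lower at day 21 and none was higher, with medians of -1.21 and -0.66, where 10.6% of all features were lower and 13.5% higher. At day 7 against intact, 45 of 48 and 20 of 43 were higher, and 1 mitosis gene was lower, where 15.3% of all features were higher and 18.1% lower. These 2 pairs of background shares also hold for the counts of the lists that follow. Of the replication genes, Gmnn, which holds back origin loading, had 1.67 CPM in intact nerve, 22.6 CPM at day 7 and 6.95 CPM at day 21, and Hells, a chromatin remodeler, had 2.15, 25.1 and 7.69 CPM. Tk1, thymidine kinase, had 2.03, 23.5 and 8.34 CPM, while Lig1, the replicative ligase, had 11.9, 33.4 and 18.6 CPM. Of the mitosis genes, Cks2, a Cdk1 subunit, had 21.1, 100.1 and 34.0 CPM, and the kinetochore genes Spc25, Cenpm and Cenpw had 2.15, 25.2 and 8.58 CPM, 3.58, 24.2 and 8.46 CPM, and 6.93, 31.8 and 10.7 CPM.

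Replication-dependent histones had a median log2 ratio of 4.53 for day 7 against intact and -1.74 for day 21 against day 7. All 6 were more than 2-fold higher at day 7 than in intact nerve, and 4 of 6 were lower at day 21 than at day 7. Hist1h2ap had 20.7, 864 and 244 CPM in intact, day 7 and day 21 cells, Hist1h2ae 4.54, 198 and 57.3 CPM and Hist1h1b 0.478, 131 and 37.8 CPM. Hist1h1e differed less, with 57.2, 134 and 101 CPM. Histone genes are near-identical copies whose reads the counting could split, and these transcripts mostly lack a poly(A) tail, so their levels are uncertain. Of 13 repair genes 9 were higher at day 7 than in intact nerve and 7 lower at day 21 than at day 7.

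The G1 list holds 8 genes, which are D-type cyclins, Cdks, Cdc25a and Myc. Of these 1 was higher at day 7 than in intact nerve and none was lower, a count near the background of 15.3% higher. It was Cdk4, with 96.8, 240.2 and 163 CPM in intact, day 7 and day 21 cells. At day 21 Ccnd1, a D-type cyclin, was the 1 that was higher than at day 7, with 67.0, 72.4 and 147 CPM in intact, day 7 and day 21 cells. Ccnd2 had 151, 167 and 192 CPM, and Ccnd3 had 49.3, 68.4 and 95.2 CPM. Of 14 Cdk inhibitors and other brakes, 4 were lower and none higher at day 7 than in intact nerve, where 18.1% of all features were lower. Cdkn2b, a Cdk4 inhibitor, had 86.2, 40.1 and 23.6 CPM, and Btg2, an antiproliferative factor, 387, 418 and 658 CPM. Cdkn1c, an inhibitor of Cdks that also marks endoneurial cells, had 240, 444 and 200 CPM, and Rb1, which restrains E2F, had 19.2, 10.8 and 21.9 CPM. Of 14 E2F, Myb and related factors, 6 were higher and 1 lower at day 7 than in intact nerve, and 5 were lower at day 21 than at day 7. E2f3 had 6.33, 20.1 and 9.35 CPM and E2f5 19.7, 21.9 and 33.6 CPM. Tfdp1 had 25.3, 44.0 and 40.2 CPM and Tfdp2 25.3, 24.2 and 26.7 CPM. Of 13 condensin and cohesin genes, 6 were higher at day 7 than in intact nerve and 3 lower at day 21 than at day 7. Smc2, a condensin subunit, had 16.6, 62.0 and 25.4 CPM and the cohesin subunit Stag2 83.1, 49.5 and 76.2 CPM. Smc4 had 26.0, 78.9 and 49.3 CPM and Rad21 56.5, 53.4 and 69.7 CPM.

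Summed over each list, markers of pericytes and smooth muscle were higher in the dividing class than in the other annotated cells of each library. Summed Schwann cell markers were higher there in the bridge libraries. Schwann cell markers summed to 423, 557 and 2407 CPM in dividing cells of intact nerve, day 7 and day 21, against 489, 227 and 534 CPM in the other annotated cells. At day 21 all 8 Schwann markers were detected and higher in the dividing class, with Pmp22 at 575 CPM and Sox10 at 88.4 CPM, and 5 of 119 dividing cells had 1% or more Schwann marker UMIs. Mbp, Sox10 and Mag were at 0 in the 7 intact dividing cells. Smooth muscle markers summed to 3826, 1439.5 and 288 CPM in the dividing class, against 252, 296 and 80.1 CPM outside it. In intact nerve 1 of the 7 dividing cells had 1% or more and held 77.1% of the smooth muscle marker UMIs of the class. At day 7, 11 of 206 dividing cells had 1% or more and held 58.5% of them. Pericyte markers summed to 895, 664 and 593 CPM, against 128, 102 and 163 CPM outside, with Rgs5 at 295, 457 and 362 CPM in the class. In each bridge library 5 of the 6 pericyte markers were higher in the class. Kcnj8 was lower there at day 7, with 23.0 CPM against 29.3 CPM outside, and Cspg4 at day 21, with 80.3 CPM against 125 CPM. Endothelial markers summed to 29.5, 126 and 101 CPM in the class and 39.2, 73.6 and 159 CPM outside, and myeloid markers had 9.84, 49.9 and 169 CPM in the class and 13.4, 31.2 and 17.4 CPM outside. Leaving out cells with 1% or more UMIs of any such list, 5 at day 21 and 12 at day 7, the class medians for day 21 against day 7 were 0.38 for S phase and 0.33 for mitosis genes, and the S phase to mitosis balance was 0.326 at day 21 and 0.386 at day 7. The 12 cells left out at day 7 had 8119 CPM of mitosis transcripts, against 5386 CPM in the other 194. The 5 left out at day 21 had 3114 CPM, against 6874 CPM in the other 114. The part of these markers in the levels of the members below 1% was not tested.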

How the data were processed

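Single cells were measured by droplet RNA sequencing in 3 libraries, intact nerve, day 7 and day 21, with 1 library in each group. The deposited matrices hold raw UMI counts of each gene in each barcode, and a deposited table gives the authors' class of 7234 cells. Per the matrix file headers the counts were made with Cell Ranger 6.1.2, and the submitters' processing notes list in addition Cell Ranger 3.0.2, Seurat 4.0.1, mm10 and GRCm38, without roles. How the authors filtered cells is not given in the sources used here. Of 14703 barcodes, 7469 had no class, and 1 listed day 21 cell was not found among the barcodes.

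Counts were summed over the cells of a library or class and divided by all UMIs of those cells. Ratios used 0.5 UMIs as a pseudocount and features with more than 3 UMIs in either library, and values past 2-fold were called. The 95% intervals were exact Poisson (levels), exact binomial of the 2 counts (folds) and Clopper-Pearson (shares), and cover counting error only. With 1 library per group there was no test. Per-cell shares used each cell thinned to 2000 UMIs and a threshold of 3 member UMIs. No doublet caller was run, and an alternative left out the 5% of cells with most UMIs. Sums by class are drawn for 20 or more cells. Ratios and intervals were checked on simulated Poisson counts, for genes with 20 or more expected UMIs in both bridge libraries. That check did not cover the intact library, lower counts or differences among cells.

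All 45 members are named. Of each other cell cycle list, up to 4 genes were named, those with the widest ratio between day 21 and day 7 among genes of at least 20 CPM in either. The members and lists were chosen with earlier results of these data known. Promoters came from a RefSeq table of GRCm38.p6, and 7 members without an entry, Mcm4, Gins2, Ccne2, Pbk, Ccna2, Aurkb and Tpx2, were not searched. Python 3.11.15 with numpy 2.4.6, scipy 1.17.1, pandas 2.3.3 and matplotlib 3.10.9 was used.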

Additional observations from a re-analysis of the deposited data

How the results depend on the processing

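No paired analysis was possible because each group has 1 library and no replicate number. There was no replicate to leave out, and 82.4% of the mitosis UMIs of intact nerve came from 7 cells of the dividing class. Of the values that answer a comparison, 86 held under the alternatives, 42 moved and 3 reversed, and of the values of single genes 731 held, 317 moved and 64 reversed. All 45 members passed the count minimum in each comparison. The alternative without that minimum therefore could not change their values, and these are among those counted as held. A value counted as held could still differ. Without the dividing class the S phase median for day 7 against intact was 1.16, against 2.17, and 30 members were higher, against 41, and both counted as held. The day 7 balance of 0.354 after thinning, against 0.370, counted as moved. The cause of these changes was not tested.

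Giving each class 1 common share of cells, which changes every class at once, turned 3 medians: for mitosis genes it was -0.08 for day 7 and -0.08 for day 21 against intact, and 0.11 for day 21 against day 7. S phase medians were then 0.91 for day 7 against intact and -0.20 for day 21 against day 7. Members past 2-fold were then 9 higher and 1 lower at day 7 than in intact nerve, 6 higher and 0 lower at day 21 than in intact nerve, and 0 lower at day 21 than at day 7. Without the dividing class, 1 member was lower at day 7 than in intact nerve. The medians for day 7 against intact were then 2.74 for mitosis and 1.16 for S phase genes, and those for day 21 against day 7 were -1.35 and -1.03. Day 21 against intact then had medians of 0.20 for S phase and 0.50 for mitosis genes, with 12 members higher and 2 lower.

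With each cell weighted alike, the mitosis medians were 3.84 for day 7 and 2.07 for day 21 against intact, and -1.60 for day 21 against day 7, with 1 member lower at day 7 than in intact nerve. After thinning to 2000 UMIs they were 3.73, 1.96 and -1.60, with 1 member lower at day 7 than in intact nerve and an S phase median of 0.43 for day 21 against intact. Without the 5% of cells with most UMIs the mitosis medians were 3.93 for day 7 and 2.44 for day 21 against intact. Over every barcode, 0 members were more than 2-fold lower at day 21 than in intact nerve.

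The S phase to mitosis ratio of the dividing class was 0.304 at day 21 and 0.338 at day 7 with each cell weighted alike, 0.292 and 0.354 after thinning, and 0.289 and 0.2995 without the top member of each set. Without cells of 1% or more other-type UMIs it was 0.386 at day 7. That alternative, and those for the medians within single classes, were chosen after seeing the data. Cells with 2 or more member UMIs made up 6.48%, 22.5% and 8.17% of annotated cells in intact, day 7 and day 21 libraries, and cells with 5 or more 0.521%, 12.1% and 2.55%. Without thinning the shares were 13.8%, 72.9% and 21.2%, and without the dividing class 4.76% at day 7 and 0.952% at day 21.

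Single genes that counted as reversed are given with their log2 ratios, and all of them were past 2-fold over all annotated cells. Without the dividing class these were, for day 7 against intact, Nusap1 (-0.63), Bub1b (-0.046), Kif11 (-0.32), Kif20b (-0.52) and Cdc20 (-0.44). For day 21 against intact they were Nusap1 (-0.58), Pbk (-0.24), Plk1 (-0.38), Bub1 (-1.96), Tpx2 (-0.52), Kif11 (-0.29), Cdc20 (-0.28) and Anln (-1.12). Bub1 had 0 UMIs there in both libraries, so its value is set by the pseudocount. For day 21 against day 7 they were Nusap1 (0.056), Bub1b (0.18), Kif11 (0.030) and Kif20b (0.96). Genes within 2-fold over all annotated cells also changed sign without the class and are not in these lists. Among them were the S phase genes Pcna (-0.13) and Slbp (-0.21) for day 7 against intact. Mcm5 (-0.58), Pcna (-0.34), Rrm1 (-0.079) and Tyms (-0.055) did so for day 21 against intact, and Cdc20 (0.16) for day 21 against day 7.

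With 1 common class share, those for day 7 against intact were Top2a (-0.076), Prc1 (-0.80), Nusap1 (-0.93), Pbk (-0.43), Ccna2 (-0.32), Aurka (-0.36), Aurkb (-0.59), Plk1 (-0.18), Bub1 (-0.031), Bub1b (-0.11), Tpx2 (-0.58), Kif11 (-0.028), Kif20b (-0.18), Hmmr (-0.43), Cdc20 (-1.14) and Anln (-0.037). For day 21 against intact they were Prc1 (-0.57), Ube2c (-0.20), Nusap1 (-0.55), Cdk1 (-0.076), Ccna2 (-0.22), Ccnb2 (-0.61), Aurka (-0.39), Aurkb (-0.52), Plk1 (-0.34), Bub1 (-0.24), Tpx2 (-0.28), Hmmr (-0.17), Cdc20 (-0.41) and Anln (-0.036). For day 21 against day 7 they were Rrm2 (0.12), Uhrf1 (0.032), Ccne2 (0.021), Mki67 (0.15), Top2a (0.25), Prc1 (0.23), Nusap1 (0.39), Cenpf (0.11), Ccna2 (0.10), Ccnb1 (0.19), Aurkb (0.066), Bub1b (0.24), Tpx2 (0.29), Kif11 (0.37), Kif20b (0.23), Hmmr (0.27) and Anln (0.00076).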

Other observations

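Barcodes without a class that had at least 2000 UMIs, 1000 genes and at most 10% mitochondrial UMIs also carried S phase and mitosis transcripts. At 2000 UMIs per cell, 3 or more member UMIs were found in 5 of 343 such barcodes of intact nerve (1.46%, 0.475 to 3.37), in 233 of 1500 at day 7 (15.5%, 13.7 to 17.5) and in 115 of 2296 at day 21 (5.01%, 4.15 to 5.98). The annotated cells had 1.79%, 14.9% and 3.41% in the same libraries. The day 7 library was thus highest among barcodes with and without a class. The cell types of the unclassed barcodes were not analysed here.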
